A study of Mus musculus with 1536 samples.

Results

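The Notch pathway was described through 10 genes: the ligands *Dll4*, *Jag1* and *Jag2*, the receptors *Notch1*, *Notch2* and *Notch4*, the DNA-binding partner *Rbpj*, and the targets *Hes1*, *Hey1* and *Heyl*. They were chosen by symbol from the 23168 genes of the adult expression matrix, and all 10 were present. Their levels were examined over all adult cells and then in the 240 cells (28.5%) with a deposited *Gja4* value above 1 and in the rest. The cells were lymphatic endothelial cells (LECs) of the nasopharyngeal mucosa of C57BL/6 mice aged 10 to 12 weeks, isolated by FACS for CD31 and podoplanin (CD31+ PDPN+) and measured by Smart-seq3, which reads full-length transcripts of single cells. The mucosa of 30 male and female mice was pooled, no mouse or plate is named for any cell, and the cells were therefore treated as 1 sample, with no test across cells. Aged cells were not analysed here. The lymphatic label was checked against marker genes. *Prox1*, the transcription factor that sets lymphatic identity, had reads in 97.7% of cells, and every cell had reads for at least 3 of 7 lymphatic genes. Of 10 genes listed for blood endothelium, 9 were in the matrix, and 4 of them were found in at least 10% of cells, namely *Emcn* (94.2%), *Plvap* (77.8%), *Bmx* (30.6%) and *Cd34* (28.9%). The other 5 had reads in 0.356% (*Esm1*) to 6.06% (*Rgcc*) of cells, with *Flt1*, a receptor of blood endothelial cells, in 2.49%. The pan-leukocyte gene *Ptprc* was at 0 throughout.

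In Notch signalling, a ligand on one cell binds a receptor on its neighbour. The receptor is then cut by ADAM proteases and γ-secretase, and the freed intracellular domain joins RBPJ on DNA to switch on genes of the Hes and Hey families, which encode transcriptional repressors. DLL4 is known for its role in endothelial sprouting and arterial identity, and NOTCH1 takes part in the formation of lymphatic valves. *Gja4* encodes connexin 37, a gap junction protein of lymphatic valves, and the pathway was compared across its level.

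Promoters of 7 of the 10 genes were found among RefSeq sequences on GRCm38.p6 (*Hes1*, *Hey1* and *Heyl* were not). Shown here are the 250 bases before the RefSeq start site of *Notch2*, *Jag2* and *Rbpj*. *Notch2* and *Jag2* each had a higher mean in cells with a deposited *Stab2* value above 1, a split singled out after values were seen. *Rbpj* was the member with matches to the RBPJ motif TGGGAA, searched on both strands and capitalised. *Notch2* lies at chr3:98013288-98013537 (+ strand), *Jag2* at chr12:112929496-112929745 (− strand) and *Rbpj* at chr5:53590096-53590345 (+ strand), each written 5′ to 3′ on the strand of its gene.
Notch2: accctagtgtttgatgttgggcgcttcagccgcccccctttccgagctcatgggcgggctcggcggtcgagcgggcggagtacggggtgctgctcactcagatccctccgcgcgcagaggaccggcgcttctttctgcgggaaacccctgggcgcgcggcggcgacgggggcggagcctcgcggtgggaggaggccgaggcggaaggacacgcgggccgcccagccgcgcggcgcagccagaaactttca
Jag2: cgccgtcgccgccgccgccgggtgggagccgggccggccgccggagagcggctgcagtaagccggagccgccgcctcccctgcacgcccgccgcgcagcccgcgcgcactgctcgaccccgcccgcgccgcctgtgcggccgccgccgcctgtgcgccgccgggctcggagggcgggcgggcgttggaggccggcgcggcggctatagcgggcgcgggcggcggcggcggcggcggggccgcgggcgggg
Rbpj: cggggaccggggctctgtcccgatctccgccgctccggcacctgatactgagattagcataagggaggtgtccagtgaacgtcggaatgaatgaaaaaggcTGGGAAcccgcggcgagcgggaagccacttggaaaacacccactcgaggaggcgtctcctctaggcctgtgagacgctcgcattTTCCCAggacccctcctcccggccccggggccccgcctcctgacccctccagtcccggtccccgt
The *Rbpj* sequence held the motif once on each strand, the match on the − strand lying 65 bases before the start site. A second RefSeq start of *Rbpj* holds the latter match again. The other 6 promoters held no match, and 21.6% of 32851 promoter sequences of this length held at least 1. *Jag2* had a GC content of 87.2% with 54 CpG dinucleotides, *Notch2* 72% with 34 and *Rbpj* 65.2% with 21. A match is a description of letters only.

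Values were deposited as the natural log of 1 plus reads per 10000 reads of the cell, and the median cell had 350746 reads (range, 7433 to 3524358). A cell without reads may have been too shallow to show the gene. Shares of cells therefore carry exact 95% intervals for counting error and are also given after thinning each cell to 20000 reads, which left out 51 shallower cells. Means are in reads per 10000 with the SD over cells.

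Among the ligands, *Dll4* was the most widely found. It had reads in 80.2% of cells (interval, 77.3 to 82.8%; 67.4% after thinning), with a mean of 2.42 ± 3.25 reads per 10000. Its deposited values ran from 0 through a median of 0.888 to 3.61. *Jag1*, a ligand also known from arteries and smooth muscle, had reads in 46.8% of cells (43.4 to 50.2%; 23.4% after thinning) but a mean of only 0.302 ± 0.832, and *Jag2* had reads in fewer cells (34.4%, 31.2 to 37.8%; 23.6% after thinning) at a higher mean of 0.557 ± 1.34. Among the cells with reads, the median deposited value was 0.242 for *Jag1* and 0.739 for *Jag2*. After thinning, the shares of cells were almost equal, so the wider share of *Jag1* depended on depth.

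*Notch1* was the most widely found receptor and the most widely found of the 10 genes. Reads were present in 90.02% of cells (87.8 to 91.96%; 73.1% after thinning), the mean was 1.82 ± 2.10, the median deposited value was 0.775 and the highest 3.31. *Notch2* had reads in 71.97% of cells (68.8 to 74.98%; 49.7% after thinning), a mean of 0.871 ± 1.28, and deposited values up to 2.36 around a median of 0.309. *Notch4*, known from blood endothelium, had reads in 29 cells (3.44%, 2.32 to 4.91%), and 2.30 reads per 10000 was its highest level. Both major receptors were thus found in most cells and *Notch4* in few. Exons of *Notch1* overlap *0610009E02Rik* and *Gm13568* on the other strand, those of *Dll4* overlap *Gm14207* on the other strand, and those of *Notch2* overlap *Gm42820* on the same strand. Whether counting used strand is not stated, so reads in these overlaps cannot be told apart.

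*Rbpj*, through which the receptors act on DNA, had reads in 37.9% of cells (34.6 to 41.3%; 19.1% after thinning) at a mean of 0.240 ± 0.623. Of the targets, *Hes1* had reads in 67.2% (63.9 to 70.4%; 42.1% after thinning) at a mean of 0.719 ± 1.21, with a median value of 0.188 and a highest of 2.29. *Hey1* had reads in 26.6% (23.6 to 29.7%; 19.1% after thinning) at a mean of 0.613 ± 2.27. Its highest value, 3.72, was above that of each other member, and the 84 cells with most *Hey1* held 83.4% of its summed level, against 34.8% for the same number of cells ranked by *Notch1*. That share was 69.5% for *Jag2*, 69.6% for *Jag1* and 70.7% for *Rbpj*, so that the level of each sparsely found member lay mostly in few cells. *Heyl* had reads in 0 cells, with an upper limit of 0.437% by the exact interval, and a limit of 3 counts would be 0.356%.

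**Figure D1:**
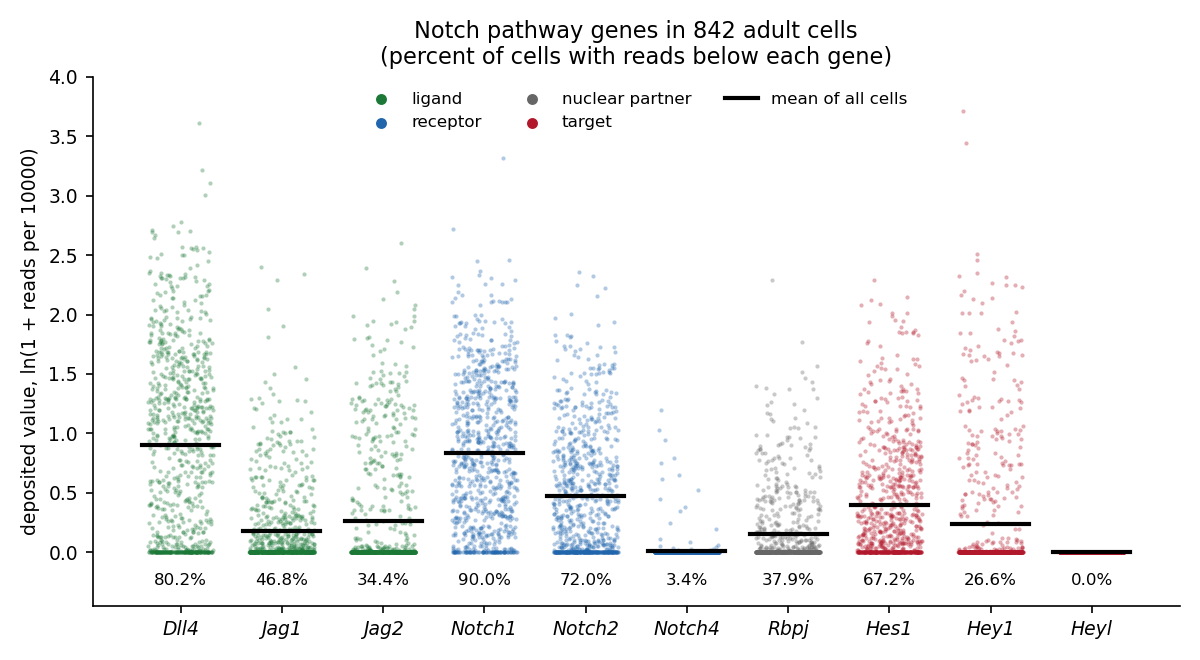
Deposited value (natural log of 1 plus reads per 10000) of each gene in each adult cell, with 1 point per cell, the mean as a black line and the share of cells with reads below. *Notch1* and *Dll4* are spread over most cells (means of 0.834 and 0.903 on the natural log scale), *Hey1* has a base at 0 and a tail up to 3.72, and *Heyl* lies at 0.

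For comparison between genes, mean reads per 10000 were divided by the length of the exons in kilobases. On this scale of levels per kilobase, *Dll4* came first (0.627), followed by *Hes1* (0.353), *Hey1* (0.188), *Notch1* (0.128), *Notch2* (0.0808), *Jag2* (0.0799), *Jag1* (0.0518), *Rbpj* (0.0188) and *Notch4* (0.0019), with *Heyl* at 0. The SD over cells exceeded the mean of every gene with reads, so that neighbours in this order overlapped cell by cell, and *Notch2* and *Jag2* were almost equal.

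Most cells had reads of both sides of the pathway. Reads of at least 1 of the 3 receptors and at least 1 of the 3 ligands were present in 88.005% of cells, and 66.98% had reads of a target as well. After thinning, these shares were 70.4% and 38.2%. *Notch1* and *Dll4* were found together in 72.7% of cells. After thinning they were together in 49.9% of cells, and the product of their separate shares was 49.2%. The levels of the 8 more widely found genes hardly followed each other from cell to cell: Pearson's r over all cells ran from -0.11 for *Dll4* with *Jag2* to 0.10 for *Dll4* with *Hey1* in 28 pairs. After thinning the range was -0.08 to 0.09. Cells share depth, and these coefficients are descriptions.

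The comparison by *Gja4* asked whether the pathway differs in the cells that carry this valve connexin. *Gja4* had no reads in 49.5% of cells, and a further 21.97% had reads but lay at or below the value of 1, which corresponds to 1.72 reads per 10000. The split is a range and not a cell type: 34 cells had values from 0.8 up to the cut and 38 from there to 1.2, and the nearest values on either side were 0.995 and 1.01. Genes were compared if found in at least 10% of cells (9655 genes, with 8 of the 10 members), and a gene was counted as different when its mean was at least 1.5-fold higher or lower.

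By this rule, 0 of 8 members were higher in *Gja4*-high cells and 0 were lower, beside 5.02% of all 9655 genes higher and 6.73% lower. For as few as 8 genes, these counts are near the background. The receptors were closest to equality. *Notch1* had means of 1.83 ± 1.82 in *Gja4*-high cells and 1.82 ± 2.20 in the rest, with reads in 90.4% and 89.9% of cells. *Notch2* had means of 0.887 ± 1.35 and 0.865 ± 1.25, with reads in 75.4% and 70.6% of cells. The 3 ligands had lower means in *Gja4*-high cells, all within the 1.5-fold range. For *Dll4* the means were 2.16 ± 2.67 and 2.52 ± 3.45, for *Jag1* 0.226 ± 0.487 and 0.332 ± 0.934, and for *Jag2* 0.451 ± 0.953 and 0.599 ± 1.46. The share of cells with *Jag1* was 45.4% (39 to 51.9%) against 47.3% (43.3 to 51.4%), and that with *Jag2* 37.1% (30.96 to 43.5%) against 33.4% (29.6 to 37.3%). After thinning, the shares were 19.5% and 24.96% for *Jag1* and 25.2% and 23.01% for *Jag2*. For *Jag2* the mean and the share of cells thus differed in opposite directions, and for *Jag1* both were lower in *Gja4*-high cells.

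*Hey1* was the member with the largest positive log2 ratio, 0.40. Means were 0.741 ± 1.72 in *Gja4*-high cells and 0.562 ± 2.46 in the rest, and the cell with most *Hey1* (3.72) was among the rest, where the highest value in *Gja4*-high cells was 2.33. The share of cells with *Hey1* was 33.8% (27.8 to 40.1%) in *Gja4*-high cells and 23.8% (20.4 to 27.4%) in the rest. When cells were divided into 4 groups of about equal size by depth, the share was higher in *Gja4*-high cells in all 4 groups, by 27.1% to 23.9%, 31.4% to 21.4%, 34.4% to 28.1% and 41.4% to 21.6% from the shallowest to the deepest, but the ratio of means ranged from 0.65 to 2.72. *Hes1* had means of 0.650 ± 1.09 and 0.747 ± 1.26, and *Rbpj* 0.279 ± 0.567 and 0.225 ± 0.644. Log2 ratios of the 8 members had a median of -0.10, and that of all genes was -0.0038.

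**Figure D2:**
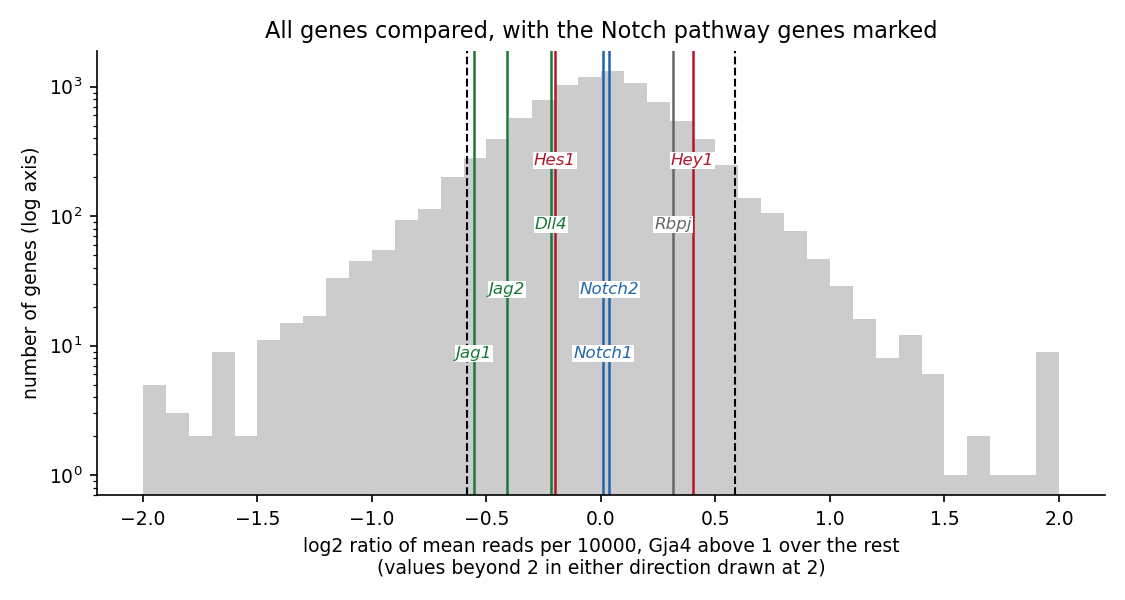
Number of genes (log axis) by the log2 ratio of mean reads per 10000 in 240 *Gja4*-high cells over all other cells, with *Gja4* itself left out, dashed lines at 1.5-fold and coloured lines for the 8 members compared. The members lie between -0.55 (*Jag1*) and 0.40 (*Hey1*), inside both dashed lines.

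The direction changed in at least 1 setting for 5 of the 8 members. Over 13 settings of the processing, the reported one included, the log2 ratio ran from -0.95 to -0.05 for *Jag1*, from -0.64 to 0.13 for *Jag2* and from -0.19 to 0.83 for *Hey1*. *Jag1* was lower by more than 1.5-fold in 4 of the 13 settings and *Jag2* in 2, while *Hey1* and *Rbpj* were higher by more than 1.5-fold in 1 each. *Gja4*-high cells also held more of the lymphatic valve genes (2 of 6 compared, *Foxc2* and *Gata2*, were higher, and the summed level of the list ranged from 0.03 to 120.3 with a median of 8.58, against 0 to 85.3 with a median of 6.28) and less *Stab2* (1.82 and 3.72). Cells with reads of at least 3 blood endothelial genes made up 48.3% of them and 47.3% of the rest. Their part in the members' values was not tested.

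The rest of the pathway was compared through 58 further genes, of which 54 were in the matrix and 40 were found in enough cells. In *Gja4*-high cells 1 of these was higher and 0 were lower, beside 5.02% and 6.73% of all genes. Such shares amount to only a few of 40 genes, so these counts are near the background. The 1 gene was *Lfng*, a fringe glycosyltransferase that adds sugars to Notch receptors and alters which ligands they answer. Its means were 1.21 ± 2.22 and 0.705 ± 1.49, and it had reads in 61.7% (55.2 to 67.8%) and 47.3% (43.3 to 51.4%) of cells. Its log2 ratio ran from 0.25 to 1.002 over the 13 settings and was below 1.5-fold in 4 of them. The 10 genes of receptor cleavage (ADAM proteases, furin and γ-secretase) had ratios of 0.80 to 1.33, and the 15 nuclear cofactors compared had ratios of 0.70 to 1.32. The ligand *Dll1* had means of 0.449 and 0.346, and *Efnb2*, an arterial gene known to respond to Notch, 1.90 and 1.45. *Dll3*, *Notch3*, *Hey2* and *Nrarp* had reads in 0.713%, 0.475%, 0.238% and 2.97% of all cells, too few to compare. *Gja5*, *Hes2*, *Hes3* and *Dlk2* were on the list but not in the matrix, so they could not be compared.

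The same comparison was then made for the other genes by which LEC subtypes of this tissue were named, each with a deposited value above 1 against all other cells. These gates overlap and share cells, and each is a range of 1 gene. Which members passed 1.5-fold differed from gate to gate. With 8 members compared, the counts at single gates were near the shares of all genes given beside them. In cells with *Lyve1*, a hyaluronan receptor of lymphatic capillaries (48.3% of all cells), 0 of 8 members were higher and 0 lower (6.53% and 5.67% of all genes), and in cells with *Foxp2* (17.7% of cells) likewise 0 and 0 (5.98% and 9.27%). In cells with *Cldn11*, a claudin of valve cells (17.9% of cells), 0 were higher (4.62%) and 2 were lower (10.1%), namely *Jag2* (0.249 and 0.624) and *Hey1* (0.327 and 0.675).

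Cells with *Fndc1* and cells with *Ptn* both had low *Jag1* and *Jag2*. In cells with *Fndc1* (16.9% of cells), 1 member was higher (7.07% of all genes) and 2 were lower (11.1%). *Hey1* had a mean of 1.0004 ± 2.14 against 0.534 ± 2.29, with reads in 38.7% (30.7 to 47.3%) and 24.1% (21.02 to 27.5%) of cells. *Jag2* had a mean of 0.191 against 0.631, and *Jag1* 0.185 against 0.325. In 85 cells with *Ptn*, 0 of 8 members were higher (9.35% of all genes) and 3 were lower (1544 of 9655 genes). The means of *Notch2* (0.593 and 0.902), *Jag1* (0.157 and 0.318) and *Jag2* (0.191 and 0.598) were below those of the rest. The share of cells with *Jag2* after thinning was 7.32% in cells with *Ptn* and 25.5% in the rest. *Notch1* differed little at every gate, with log2 ratios from -0.20 to 0.16.

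Cells with *Ptx3* were few. In these 42 cells, 1 member was higher (16.6% of all genes) and 3 were lower (21.8%). The higher one was *Notch2* (1.28 and 0.850), at the edge of the 1.5-fold range. The lower ones were *Dll4* (1.49 and 2.47), *Hey1* (0.0638 and 0.642) and *Rbpj* (0.105 and 0.247). *Hey1* had reads in 11.9% of them (3.98 to 25.6%) and in 27.4% of other cells (24.3 to 30.6%).

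Among the cells with *Cldn11*, 52 were *Gja4*-high and 99 were not. The study annotated its downstream and upstream valve clusters by *Cldn11* with and without *Gja4*. The split used here is a cut on values and need not match those clusters. Here 2 members were higher (16.2% of all genes) and 0 were lower (17.8%), counts near the background. *Jag1* had means of 0.391 ± 0.654 and 0.245 ± 0.534, the opposite order to that in all cells, and *Hey1* 0.475 ± 1.38 and 0.249 ± 0.740. Shares of cells were close for both, at 53.8% (39.5 to 67.8%) and 47.5% (37.3 to 57.8%) for *Jag1* and 30.8% (18.7 to 45.1%) and 26.3% (17.9 to 36.1%) for *Hey1*, with wide intervals. *Lfng* had means of 0.744 ± 1.17 and 0.892 ± 1.84 here, also the opposite order to that in all cells. It had reads in 55.8% and 48.5% of cells.

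**Figure D3:**
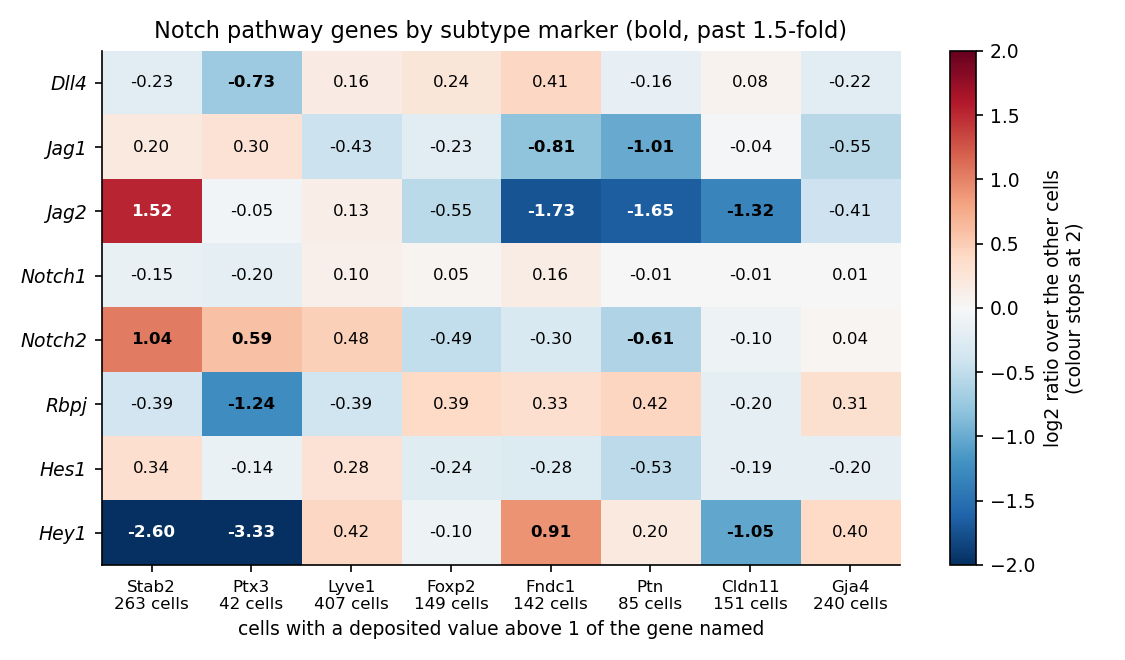
Log2 ratio of mean reads per 10000 in cells above 1 for the gene named below each column over all other cells, for the 8 members compared, with values past 1.5-fold in bold and colours that stop at 2 in either direction. *Jag2* and *Hey1* change sign between columns, with *Jag2* at 1.52 for *Stab2* and -1.73 for *Fndc1*, and *Notch1* stays near 0.

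The gate for *Stab2* was singled out after these values were seen. *Stab2* encodes a scavenger receptor that takes up hyaluronan. Cells with *Stab2* (31.2% of all cells) and the others had similar depth, with medians of 368560 and 350281 reads. In the cells with *Stab2*, 2 of 8 members were higher (10.6% of all genes) and 1 was lower (8.05%). With 8 genes, counts this small do not set the members apart from all genes.

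*Notch2* was higher. Its means were 1.35 ± 1.69 in cells with *Stab2* and 0.654 ± 0.968 in the rest, a ratio of 2.06, and it had reads in 78.7% (73.3 to 83.5%) and 68.9% (64.97 to 72.7%) of cells. After thinning the shares were 62.6% and 43.9%. Deposited values overlapped widely, with medians of 0.590 and 0.198 and highest values of 2.36 and 1.97. *Jag2* was higher by a ratio of 2.86, with means of 1.01 ± 1.84 and 0.352 ± 0.964. It had reads in 46.01% (39.9 to 52.2%) and 29.2% (25.5 to 33.1%) of cells, and in 37.8% and 17.2% after thinning. *Hey1* was lower, with means of 0.136 ± 0.552 and 0.829 ± 2.69, and the rest exceeded cells with *Stab2* by a ratio of 6.08. Reads were present in 12.9% (9.12 to 17.6%) and 32.8% (29 to 36.8%) of cells. The highest *Hey1* value was 1.66 in cells with *Stab2* and 3.72 in the rest. These directions belong to the genes named and not to their roles. The ligand *Dll4* had a lower mean and the target *Hes1* a higher mean in cells with *Stab2*, both within the 1.5-fold range.

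The other members stayed within the 1.5-fold range: *Notch1* at 1.70 and 1.88, *Dll4* at 2.16 and 2.53, *Jag1* at 0.331 and 0.288, *Hes1* at 0.841 and 0.664 and *Rbpj* at 0.198 and 0.260. *Dll4* nevertheless had reads in fewer cells with *Stab2*, 72.2% (66.4 to 77.6%) against 83.8% (80.5 to 86.7%). *Notch2*, *Jag2* and *Hey1* passed 1.5-fold in these directions in all 4 groups of cells by depth, with ratios of 1.81 to 2.30 for *Notch2* and 2.46 to 3.28 for *Jag2*, and of 4.56 to 9.88 in favour of the rest for *Hey1*. These groups divide the same cells in which the genes were singled out and are no separate support. The measure mattered, however. With a pseudocount of 1 only *Hey1* was past 1.5-fold, and when means of natural log values were subtracted instead none of the 8 was, with log2 ratios of 0.40 for *Notch2*, 0.38 for *Jag2* and -0.33 for *Hey1*. Among cells with *Lyve1* above 1, *Hey1* had means of 0.0975 with *Stab2* and 1.05 without, and among those at or below 1 it had 0.187 and 0.648.

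Cells were also grouped by the value of *Stab2*. In cells with no *Stab2* reads (42.2% of all cells), with values up to 1 (26.6%), up to 2 (13.9%) and above 2 (17.3%), *Hey1* had reads in 32.1%, 33.9%, 14.5% and 11.6% of cells. *Jag2* had reads in 24.8%, 36.2%, 46.2% and 45.9%, and its means were 0.336, 0.376, 0.930 and 1.07. *Notch2* means were 0.682, 0.610, 1.18 and 1.48. *Hey1* means were 1.03, 0.503, 0.192 and 0.0920. Taken as a difference of means, the widest step lay across the value of 1 for *Jag2* and *Notch2*. For *Hey1* that difference was widest between cells without and with *Stab2* reads. The share of cells with *Hey1*, however, changed most across the value of 1, from 33.9% to 14.5%, so the place of its step depended on the measure. Depth differed between the groups, with medians of 278595, 494208, 483087 and 262904 reads, and after thinning *Hey1* had reads in 26.2%, 21.8%, 10% and 5.15% of cells. *Dll4* was found in 82.5%, 85.7%, 81.2% and 65.1% of cells, the last group having the lowest share.

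**Figure D4:**
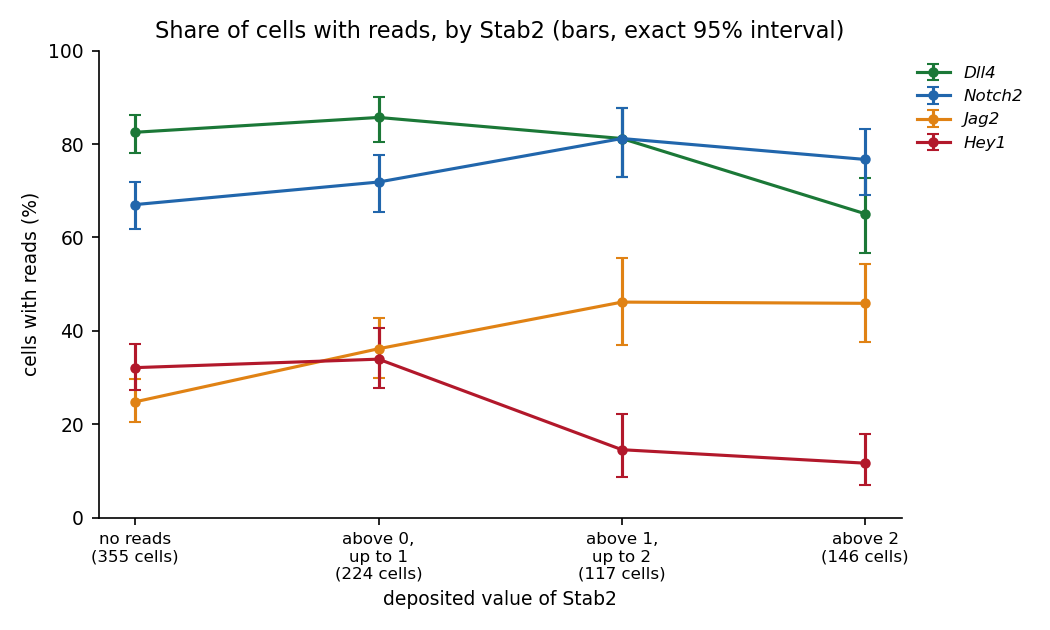
Share of cells with reads of *Dll4*, *Notch2*, *Jag2* and *Hey1* (percent, with exact 95% intervals as bars) in 4 groups of cells by the deposited value of *Stab2*. The share with *Hey1* is 32.1% in cells with no *Stab2* reads and 11.6% in cells above 2, while that with *Jag2* is 24.8% and 45.9%.

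Of the 40 further pathway genes compared, 5 were higher and 6 were lower in cells with *Stab2*, where the shares of all genes (10.6% and 8.05%) correspond to about 4 and 3 of 40. The higher count is thus near the background. The higher ones included the coactivator *Ep300* (0.546 and 0.362), the corepressor *Tle2* (0.273 and 0.115), *Hes6* (0.169 and 0.0951), a relative of *Hes1* that opposes it, and the netrin receptor *Unc5b* (7.31 and 3.32). The lower ones were the ligand *Dll1* (0.190 and 0.459), the γ-secretase genes *Psen2* (1.25 and 2.41), *Aph1b* (0.298 and 0.891) and *Aph1c* (0.0353 and 0.0942), the ubiquitin ligase *Dtx1* (0.750 and 3.25) and *Efnb2* (0.890 and 1.89). *Aph1b* and *Aph1c* are close copies, and reads of one may have been given to the other. *Dll1* had reads in 15.2% and 32.5% of cells, so that it was lower where *Jag2*, another ligand, was higher. Cells with *Stab2* also held less of the valve list (4 of 6 genes lower, *Cldn11*, *Foxc2*, *Gata2* and *Fn1*, with a summed level of 0 to 46.97 and a median of 4.78, against 0 to 120.3 and 8.10) and less of the immediate early list (0.928 to 884.4 with a median of 180.3, against 1.2 to 1069.4 with a median of 230.6), and their part in the members' values was not tested.

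*Hes1* followed another axis. The genes nearest to it by Pearson's r of deposited values over all cells were *Socs3* (0.29), *Id3* (0.26) and *Zfp36* (0.26), and after thinning r was 0.27, 0.23 and 0.24. *Socs3* and *Zfp36* belong to a list of 15 immediate early genes, which cells switch on within minutes of a stimulus and also during tissue digestion. When cells were ranked by the mean deposited value of that list, *Hes1* had reads in 45.02% (38.2 to 52%), 69.05% (62.3 to 75.2%), 76.2% (69.8 to 81.8%) and 78.7% (72.5 to 84%) of cells from the lowest to the highest of 4 groups of about equal size. Its means were 0.300, 0.674, 0.878 and 1.03, a ratio of 3.43 between the highest and the lowest group. Because *Socs3* and *Zfp36* are part of the ranking, it partly restates the coefficients above and is no separate support.

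Between those groups 2 of 8 members were higher (10.8% of all genes) and 2 were lower (22.1%). The lower count is thus near the background. *Hey1* was the other higher member (0.709 and 0.419), and *Notch2* (0.662 and 1.02) and *Jag2* (0.344 and 0.662) were lower. The highest group was deeper, with a median of 513148 reads against 291032, but in each of the 4 groups by depth the *Hes1* mean was higher in the cells highest for immediate early genes: 1.65 and 0.556 in the shallowest, 0.782 and 0.314, 1.11 and 0.183, and 0.732 and 0.138 in the deepest. *Notch1* was 1.76 and 1.80, and *Dll4* 2.56 and 2.40. The part that tissue handling has in *Hes1* was not tested.

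**Figure D5:**
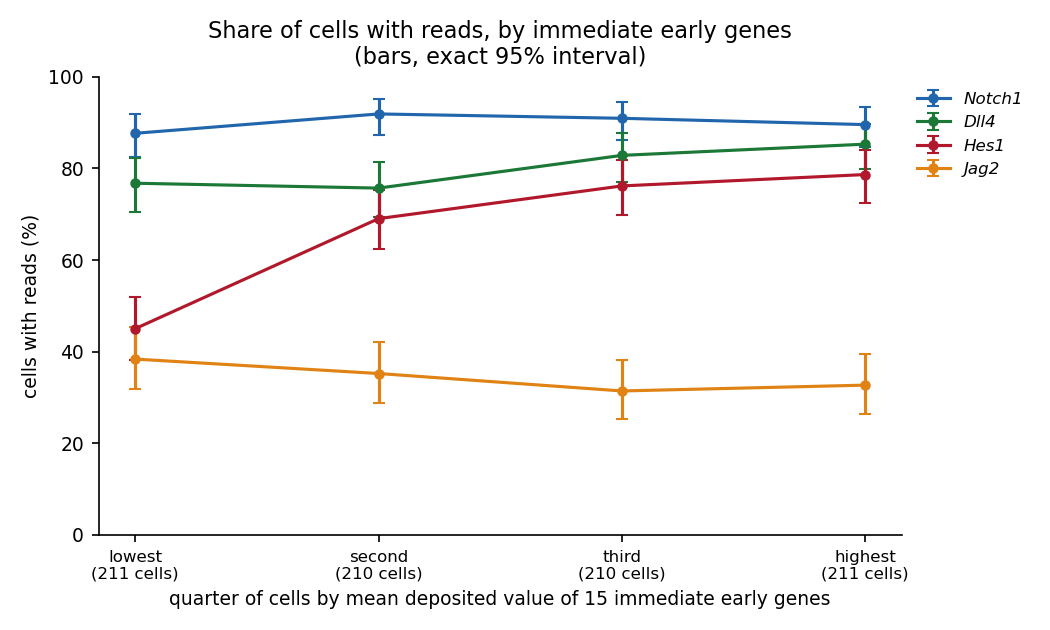
Share of cells with reads of *Notch1*, *Dll4*, *Hes1* and *Jag2* (percent, with exact 95% intervals as bars) in 4 groups of cells by the mean deposited value of 15 immediate early genes. The share with *Hes1* is 45.02% in the lowest group and 78.7% in the highest, whereas *Notch1* is at 87.7% and 89.6%.

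The genes nearest to the other members give a further description, with the same measure over the same cells. *Notch2* and *Jag2* shared 2 of their 3 nearest genes, *Gm525* (0.26 and 0.25) and *Stab2* (0.25 and 0.23). The remaining one was *Aqp1*, a water channel, for *Notch2* (0.23) and *Sema7a*, a semaphorin, for *Jag2* (0.25). The coefficients with *Stab2* restate the split by *Stab2* in the same cells and are no separate support. Between *Notch2* and *Jag2* themselves, r was 0.08. *Hey1* was nearest to *Gucy1b3*, a subunit of the nitric oxide receptor guanylate cyclase (0.20), *Mtus1* (0.17) and *Megf6* (0.16). *Dll4* was nearest to *Apold1* (0.19), *Fgl2* (0.19) and *Map3k1* (0.17). For *Notch1* the nearest were *Tmem63a* (0.14), *Hdac2* (0.13) and *Caskin2* (0.13), for *Rbpj* *Cacna2d1*, *Atp6v1g1* and *Rbmx* (0.15 each), and for *Jag1* *Gm12164* (0.17), *E230020D15Rik* (0.16) and *Nup214* (0.15). The first of these for *Jag1* was at -0.05 after thinning. All of these coefficients were weak, and the counts were sparse.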

How the data were processed

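Nasopharyngeal LECs of adult mice were sorted by FACS and processed by Smart-seq3. The authors used STAR with the mm10 genome and featureCounts (Subread) for reads per gene, kept cells with at least 2000 genes and at most 10% mitochondrial reads, and normalized them with Seurat 4.1.0. The deposited values are ln(1 + reads per 10000), in which ln is the natural log. The methods name log2, but the natural log returned a sum of 10000 in every cell. Of values above 0, 100% were whole reads within 0.01 reads. Strand and multi-mapping settings are not given in the sources used here, and reads rather than molecular identifiers were used as far as stated.

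All 842 cells were used, with 0 columns unmapped. The 1536 wells in the labels include those without a column. The labels name neither mouse nor plate, so the cells formed 1 pooled sample and received no p-value. Splits used a deposited value above 1, which left 240 cells for *Gja4*, 263 for *Stab2*, 407 for *Lyve1*, 151 for *Cldn11*, 149 for *Foxp2*, 142 for *Fndc1*, 85 for *Ptn* and 42 for *Ptx3*. Means of reads per 10000 were compared for 9655 genes found in at least 10% of cells, and a gene counted as different at 1.5-fold. For *Ptn*, 0 of 8 members were higher and 3 lower (*Notch2*, *Jag1* and *Jag2*), beside 9.35% of all genes higher and 16.0% lower. Pearson's r used deposited values. Shares carry exact Clopper–Pearson 95% intervals, and a share of 0 carries the limit that 3 counts allow. Thinning drew 20000 reads from each of 791 cells (seed 7). Steps were tested on simulated data. Gene models were GENCODE release M21 on GRCm38, and promoters came from RefSeq.

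The members, the other pathway genes and the marker lists were chosen with earlier results of these data known. All members were named, together with further pathway genes past 1.5-fold by *Gja4* or *Stab2*, a few ligands, receptors and targets whatever their value, and the 3 genes nearest to each member by r. Alternatives for the *Stab2* split were added after seeing the data. Python 3.11.15, NumPy 2.4.6, pandas 2.3.3, SciPy 1.17.1 and Matplotlib 3.10.9 were used. The values of 1 gene of the pathway lists are not reported here.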

Additional observations from a re-analysis of the deposited data

How the results depend on the processing

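For the *Stab2* split, no setting reversed *Notch2*, *Jag2* or *Hey1*, the members past 1.5-fold. For the *Gja4* split no member was past 1.5-fold, so none could be counted as reversed, and most changed direction as given above. No setting was left out. For the *Gja4* split, 1 log2 ratio of the single members and *Lfng* moved by over 1.5-fold (*Hey1*, to -0.19 with *Gja4* above 0), and counts moved more. With a pseudocount of 1, higher and lower genes made up 0.0518% and 0.166% of all genes, and with the difference of mean natural log values 0.0414% and 0.0414%, with 0 other pathway genes higher in both. Pooled reads gave 1 member higher (*Hey1*) and 2 and 3 other pathway genes higher and lower, and thinning 1 member higher (*Rbpj*) and 3 and 1. *Gja4* above 0 gave 2 members lower (*Jag1*, *Jag2*), 2 other pathway genes lower and 4.04% of all genes lower. *Gja4* above 2 gave 1 member lower (*Jag1*), 9.69% and 13.9% of all genes, and 3 and 2 other pathway genes. Against cells with no *Gja4* reads, 2 members were lower, with 2 other pathway genes each way. Percentages were 1.38% and 3.39% for genes in at least 30% of cells, 18.8% and 26.6% for genes in at least 3 cells (6 and 4 other pathway genes), and 0.891% and 1.47% at 2-fold (0 other pathway genes higher). Without cells with 3 or more blood endothelial markers they were 10.1% and 10.6% (6 other pathway genes lower), and with *Lyve1* at or below 1 they were 7.82% and 12.2% (4 lower). With *Cldn11* at or below 1, 1 member (*Jag1*) and 3 other pathway genes were lower.

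For the *Stab2* split, 9 log2 ratios of members moved by over 1.5-fold and 95 did not. Some measures ended calls: with a pseudocount of 1, 0 members were higher (0.735% and 1.015% of all genes), and with the difference of mean natural log values 0 were higher and 0 lower (0.549% and 0.694%). *Rbpj* joined *Hey1*, making 2 lower, after thinning, with *Stab2* above 0 (then 1 higher, *Jag2*, and 4.83% of all genes lower), against cells with no *Stab2* reads, and without cells with 3 blood endothelial markers (12.4% of all genes lower). Genes in at least 30% of cells left out *Hey1*, so 0 were lower (5.08%). Percentages were 23.8% and 25.3% for genes in at least 3 cells, 2.88% and 3.38% at 2-fold, and 16.3% and 13.7% with *Lyve1* at or below 1. Log2 ratios ran from 0.40 to 1.22 for *Notch2*, from 0.38 to 1.59 for *Jag2* and from -3.43 to -0.33 for *Hey1*. Fewer cells or genes set part of these changes by construction; otherwise the cause was not tested. No paired analysis was possible because the cells are 1 pooled sample with no replicate. Depth limits shares of low genes: *Rbpj* was found in 14.2% of the shallowest group of cells and in 53.1% of the deepest. Shares of cells moved in 24 of 30 cases with thinning, with a value above 1 as the threshold or with a higher minimum of genes per cell.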

Other observations

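Further pathway genes differed between cells with *Fndc1*, *Ptn* and *Ptx3* above 1. *Dtx1*, a ubiquitin ligase that binds Notch receptors, had means of 3.69 and 2.23 reads per 10000 in cells with *Fndc1* and in other cells, with reads in 88.7% (82.3 to 93.4%) and 68.4% (64.8 to 71.9%) of cells. In cells with *Ptn* it had means of 3.96 and 2.31, and in the 42 cells with *Ptx3* 0.784 and 2.56. *Unc5b*, the netrin receptor, was lower in cells with *Fndc1* (2.95 and 4.90) and with *Ptn* (1.85 and 4.87). *Aph1b*, a γ-secretase gene, was higher in both (1.30 and 0.586, and 1.27 and 0.642) and lower in cells with *Ptx3* (0.382 and 0.722). These genes were picked after their values were seen, the gates share cells, and no difference between gates was tested.

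*Efnb2* and *Unc5b* are both counted here among genes that respond to Notch. In cells with *Foxp2* above 1, *Efnb2* was higher (2.41 and 1.39) and *Unc5b* lower (3.19 and 4.87), and in cells with *Ptx3* *Efnb2* was lower (1.03 and 1.60), with reads in 50% (34.2 to 65.8%) and 75.5% (72.4 to 78.4%) of cells.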
